A study of Mus musculus with 6 samples.

Results

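The genes of the tripartite motif (TRIM) proteins were taken as every row of the deposited table whose symbol is Trim followed by a number, which gave 64 of 32801 rows. Of these, 40 reached 10 or more normalized counts in at least 3 libraries, as did 16442 rows in all. The RNA came from regulatory T cells (Treg) isolated from the thymus at an age of 3 weeks by a sort for GFP−, CD4+CD8− and Thy1.1+ cells. NOD mice, which become diabetic through autoimmunity without any treatment, gave 3 libraries, and C57BL/6 (B6) mice gave the other 3, and the comparison asks how these genes differ between the strains. The labels do not state what GFP and Thy1.1 report or which transgenes carry them, and they name no treatment. They do not say whether the libraries came from separate animals, so p-values measure the spread between these libraries, which may be technical.

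TRIM proteins carry a RING finger, one or more B-boxes and a coiled coil, and most act as ubiquitin ligases. Their C-terminal domain sets much of what they bind, and many members are induced by interferon, act in the sensing of viral nucleic acids or restrict viruses directly. Others act in the nucleus as co-repressors of transcription or on the cytoskeleton. In the mouse, the Trim5, Trim6, Trim12, Trim30 and Trim34 genes form a cluster of duplicated copies on chromosome 7 that differs in gene content between species.

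Values are normalized counts, read here as reads per gene that the authors scaled with library size factors and rounded. Library sums ran from 16097369 to 17625903. Within the range of size factors searched, the estimated depth was lowest in B6 library 20, at 15500000 reads, and highest in NOD library 18, at 21600000. The columns carry library numbers, so libraries are named NOD 2, 10 and 18 and B6 4, 12 and 20. Log values of libraries of the same strain correlated at 0.973 to 0.987, and those of different strains at 0.933 to 0.944. The Treg factor Foxp3 lay between 1701 and 2310 normalized counts in NOD and between 1784 and 2446 in B6. Of the 6 Treg markers listed, all tested, 1 was higher in NOD and 0 lower, beside 9.89% of all genes called. It was Cd3e, at 2118, 1598 and 2031 in NOD and 1088, 1051 and 1207 in B6 (limma adjusted p = 0.0022). For 3 of the 6, Cd3e, Cd4 and Ctla4, every NOD library was above every B6 library, beside 24.1% of all genes without overlap. Foxp3, Il2ra and Ikzf2 overlapped. Summed over 8 markers of dendritic cells and macrophages, NOD libraries held 490 to 629 and B6 libraries 1020 to 1251 normalized counts, and 2 of the 6 markers tested were lower in NOD and 0 higher. Those were Cd74 and H2-Aa, which act in antigen presentation. H2-Ab1 stood at 42, 54 and 57 in NOD and 93, 77 and 110 in B6 and did not pass (limma adjusted p = 0.054). The strains were separated for 3 of the 6, beside 24.1% of all genes. An unadjusted p below 0.05 was found for 4 of the 6, beside 20.3% of all genes. Of the defining genes of these cells, Itgax lay at 2 to 5 in NOD and 4 to 16 in B6. Over both strains, Siglech lay at 1 to 8, Xcr1 at 56 to 99 and Csf1r at 14 to 25. Lyz2 stood at 3, 3 and 15 in NOD and 38, 13 and 33 in B6, which overlapped and did not pass (limma adjusted p = 0.068). The 5 markers of CD4+CD8+ thymocytes summed to 227 to 303 in NOD and 225 to 270 in B6, with Cd8a higher in NOD (124, 35 and 100 against 10, 17 and 18) and Rag1 lower (49, 55 and 67 against 155, 100 and 111) among 3 tested. Sums for B cell, NK cell and thymic epithelial markers stayed at or below 300 in every library. In bulk RNA, fewer cells of a type and less RNA per cell cannot be told apart.

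Strain differences that passed the test lay in the chromosome 7 cluster alone among the kept TRIM genes. With limma on log2(value + 1) and an adjusted p below 0.05, 2 of the 40 were higher in NOD (Trim34b and Trim30a) and 4 were lower (Trim12a, Trim12c, Trim30d and Trim34a), while 34 did not pass. That is 15% of the kept members beside 9.89% of all genes tested, with 4.59% of all genes called higher and 5.3% called lower. The libraries of the strains did not overlap for 14 of the 40 (35%), beside 24.1% of all genes tested. The median log2 fold change, NOD over B6, was −0.02 over the 40 and 0.01 over all genes, and the median absolute change was 0.31 against 0.22. Of the kept members, 36 had 10 or more normalized counts in all 6 libraries, and Trim12a, Trim17, Trim34b and Trim69 had fewer in some library. The filter can pass a gene through its higher strain alone, so these counts describe the kept genes and not all 64.

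**Figure D1:**
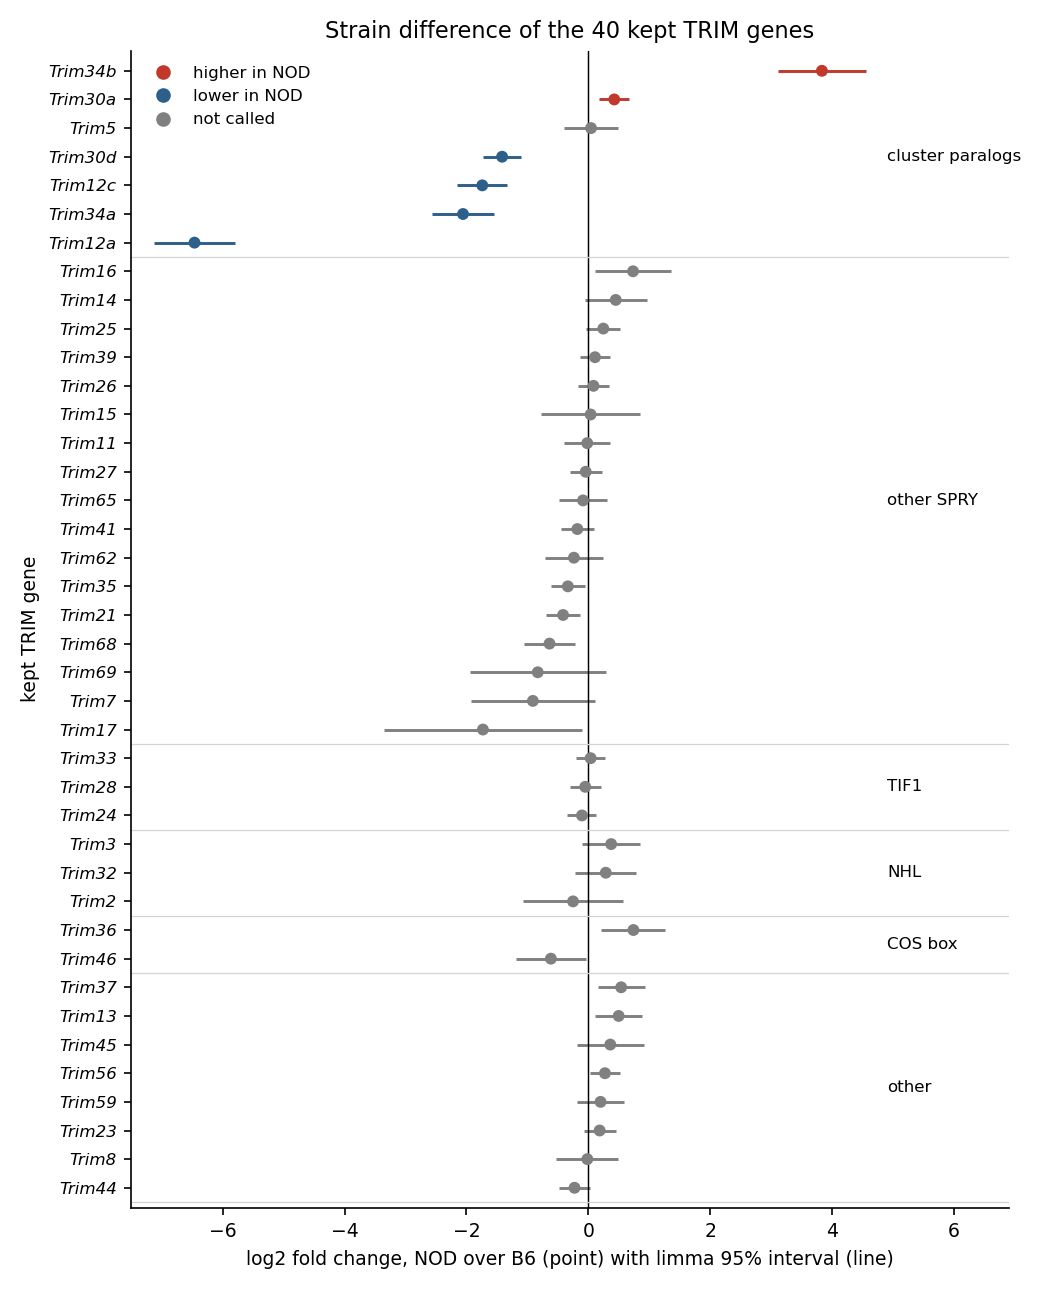
Log2 fold change, NOD over B6, of the 40 TRIM genes kept by the filter, with limma's 95% interval, coloured by whether the gene passed an adjusted p of 0.05. The 6 genes that passed belong to the chromosome 7 cluster and run from −6.46 (Trim12a) to 3.83 (Trim34b).

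The cluster lies at chr7:104218793-104507849 in mm10 and spans 289 kb, with coordinates from GENCODE M21. The table held 10 of the 12 paralogs listed for it; Trim12b and Trim30e-ps1 are not analysed here. Some copies of the cluster are close in sequence, which bears on how reads divide among them. The opening 60 coding bases of 3 pairs of copies whose values differ between the strains follow, read from GENCODE M21 transcripts on GRCm38, with the bases that differ within a pair in capitals.
Trim12a: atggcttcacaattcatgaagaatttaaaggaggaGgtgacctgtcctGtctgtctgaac
Trim12c: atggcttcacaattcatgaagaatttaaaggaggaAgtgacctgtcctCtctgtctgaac
Trim34a: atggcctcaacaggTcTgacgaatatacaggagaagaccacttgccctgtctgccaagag
Trim34b: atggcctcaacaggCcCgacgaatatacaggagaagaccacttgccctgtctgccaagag
Trim30a: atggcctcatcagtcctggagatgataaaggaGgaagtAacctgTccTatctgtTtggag
Trim30d: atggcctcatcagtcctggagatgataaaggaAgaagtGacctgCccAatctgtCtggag
The pairs differ at 2, 2 and 5 of these 60 positions. Over the aligned coding sequence, Trim12a matched Trim12c at 96.4% of 891 bases, Trim34a matched Trim34b at 98.2% of 1451 and Trim30a matched Trim30d at 90.2% of 1488. The coding sequence of Trim12a, at 891 bases, is shorter than the 1491 of Trim12c and of Trim5. Of all 50-base stretches of a gene's annotated transcripts, 59.7% of Trim34a and 56.8% of Trim34b also occur in another gene, against 10.5% of Trim12a, 33.7% of Trim12c, 36.6% of Trim5, 5.98% of Trim30a and 7.49% of Trim30d. How the authors' counter treated reads that match several genes is not given in the sources used here, so the division of counts within a pair is uncertain.

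Many TRIM promoters answer to interferon through the ISRE, a short DNA element of interferon-induced genes, so the promoters of both pairs with the largest differences are shown. They are from RefSeq on GRCm38.p6, from 250 bases before to 50 after the annotated start, 5′ to 3′ on the gene's strand. Capitals mark the ISRE core, read as TTTC, any pair of bases and TTTC again, which was searched on both strands.
Trim12a, chr7:104315446-104315745, minus strand: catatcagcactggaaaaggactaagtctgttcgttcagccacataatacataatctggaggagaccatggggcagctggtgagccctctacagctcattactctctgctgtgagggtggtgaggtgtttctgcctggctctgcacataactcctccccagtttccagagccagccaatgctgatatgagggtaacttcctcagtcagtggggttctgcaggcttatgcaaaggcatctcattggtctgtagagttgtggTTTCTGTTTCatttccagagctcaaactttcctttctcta
Trim12c, chr7:104353300-104353599, minus strand: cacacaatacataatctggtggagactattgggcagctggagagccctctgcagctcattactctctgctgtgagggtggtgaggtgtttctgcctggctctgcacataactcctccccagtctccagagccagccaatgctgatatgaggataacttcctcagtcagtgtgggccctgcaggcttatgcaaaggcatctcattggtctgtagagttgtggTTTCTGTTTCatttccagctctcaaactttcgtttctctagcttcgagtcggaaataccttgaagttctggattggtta
Trim34a, chr7:104244207-104244506, plus strand: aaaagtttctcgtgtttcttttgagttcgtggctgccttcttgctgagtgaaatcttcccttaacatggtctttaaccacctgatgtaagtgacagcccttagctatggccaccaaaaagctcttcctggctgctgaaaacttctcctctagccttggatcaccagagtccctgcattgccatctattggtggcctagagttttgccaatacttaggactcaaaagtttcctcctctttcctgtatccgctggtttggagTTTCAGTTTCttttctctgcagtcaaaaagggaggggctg
Trim34b, chr7:104329221-104329520, plus strand: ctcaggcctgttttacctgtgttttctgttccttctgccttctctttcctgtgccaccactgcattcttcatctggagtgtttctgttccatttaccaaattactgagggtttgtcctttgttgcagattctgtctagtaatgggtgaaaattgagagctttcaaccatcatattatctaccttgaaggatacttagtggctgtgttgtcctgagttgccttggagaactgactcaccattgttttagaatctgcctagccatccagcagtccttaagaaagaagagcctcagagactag
Of the 10 cluster genes, 6 held the core in a promoter, namely Trim5, Trim12a, Trim12c, Trim30a, Trim30d and Trim34a. So did 3.99% of all 27025 genes with a promoter of the same length, where a gene counted once if any of its promoters held the core. Its letters were not found in this window for Trim6, Trim30b, Trim30c and Trim34b. All 4 genes that were lower in NOD held it, as did Trim5, which did not pass the test, and Trim30a, which was higher. Promoters of Trim5, Trim12a and Trim12c carry the same letters around the core, and so do those of Trim30a and Trim30d. As duplicated copies these are not separate observations, so the count of 6 is not read against the share of all genes. Of the 33 kept members outside the cluster, 23 have a promoter in that table, and 3 of the 23 held the core. With so many members missing, the count of 3 is not read against the share of all genes either.

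The Trim12 genes encode relatives of Trim5, whose primate counterpart restricts retroviruses. Trim12a (chr7:104299894-104315466, minus strand) stood at 15, 23 and 8 normalized counts in NOD libraries 2, 10 and 18 and at 1314, 1315 and 1370 in B6 libraries 4, 12 and 20. Every NOD library was far below every B6 library. The means were 15.3 ± 7.51 and 1333 ± 32.1 (SD, n = 3 each), which gives a change of −6.46 ± 0.30 on the log2 scale (± SE; limma adjusted p = 1.3e-07). Its 95% interval ran from −7.12 to −5.80, and with any single library left out the change lay between −6.80 and −6.09. Trim12c (chr7:104338754-104353362, minus strand), whose product promotes TRAF6 ubiquitination in mouse cells, stood at 358, 242 and 343 in NOD and at 1074, 835 and 1246 in B6. The groups did not overlap, and the log2 fold change was −1.74 ± 0.19 (limma adjusted p = 9.3e-05). Trim5 (chr7:104263386-104288094, minus strand), which shares more 50-base stretches with Trim12c than Trim12a does, stood at 372, 230 and 345 in NOD and at 329, 252 and 325 in B6. The strains overlapped, and the log2 fold change was 0.04 ± 0.20 (limma adjusted p = 0.94), with an interval of −0.40 to 0.48.

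The Trim34 copies encode interferon-inducible members and moved in opposite directions. Trim34a (chr7:104244457-104262234, plus strand) stood at 165, 92 and 128 normalized counts in NOD and at 438, 479 and 680 in B6. Its highest NOD library was below the lowest B6 library, and the log2 fold change was −2.06 ± 0.23 (limma adjusted p = 0.00015). Trim34b (chr7:104329471-104336909, plus strand) stood at 178, 169 and 204 in NOD and at 7, 17 and 14 in B6, with all NOD libraries above all B6 libraries. Its log2 fold change was 3.83 ± 0.33 (limma adjusted p = 1.9e-05). Of the 50-base stretches of Trim34a, 39.8% occur in Trim34b and 20.2% in Gm47248, whose exons overlap Trim34a on the opposite strand. Of those of Trim34b, 56.8% occur in Trim34a. For the sharing between the copies, they were also summed, a choice made after the values were seen. The part shared with Gm47248 is not addressed by this. The sum was 343, 261 and 332 in NOD and 445, 496 and 694 in B6, a log2 fold change of −0.79 ± 0.18 (limma adjusted p = 0.019), and leaving out NOD 18 (0.0501) or B6 20 (0.0553) ended that call. The NOD libraries stayed below the B6 libraries in the sum.

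The Trim30 genes include Trim30a, whose product restrains NF-kappaB signalling downstream of Toll-like receptors in mouse macrophages by way of TAB2 and TAB3. Trim30a (chr7:104409025-104465193, minus strand) stood at 3885, 3092 and 3339 normalized counts in NOD and at 2549, 2452 and 2652 in B6, so the groups did not overlap. The means were 3439 ± 406 and 2551 ± 100, a log2 fold change of 0.42 ± 0.11 (limma adjusted p = 0.032), which is small beside the other calls of the cluster. Leaving out NOD 2 (limma adjusted p = 0.158), NOD 18 (0.0946), B6 4 (0.109), B6 12 (0.117) or B6 20 (0.0501) ended the call, and leaving out NOD 10 did not (0.013). In the authors' deposited table its log2 fold change was 0.43 with an adjusted p of 0.134. Trim30d (chr7:104470014-104507849, minus strand) stood at 251, 246 and 221 in NOD and at 657, 563 and 706 in B6, with no overlap and a log2 fold change of −1.42 ± 0.14 (limma adjusted p = 5.4e-05). Trim30b and Trim30c were under the filter, Trim30b at 2, 2 and 6 in NOD and 16, 11 and 6 in B6, and Trim30c at no more than 8 in any library. Trim6 was under it too, at 0, 0 and 1 in NOD and 8, 7 and 0 in B6.

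Other sums of cluster genes were made in the same way, again by a choice made after the values were seen. Not all of these genes are near-identical. Trim30a and Trim30d matched at 90.2% of aligned coding bases, and Trim30d and Trim34b, both in the whole-cluster sum, at 61.2%. Trim12a and Trim12c together stood at 373, 265 and 351 in NOD and 2388, 2150 and 2616 in B6, a log2 fold change of −2.86 ± 0.15 (limma adjusted p = 2.9e-07). With Trim5 added the change was −2.07 ± 0.16 (limma adjusted p = 6.3e-06). Trim30a and Trim30d together gave 4136, 3338 and 3560 against 3206, 3015 and 3358, a change of 0.20 ± 0.11 that did not pass (limma adjusted p = 0.37), and the strains overlapped. The 7 kept genes of the cluster together gave 5224, 4094 and 4588 in NOD against 6368, 5913 and 6993 in B6, which did not overlap. That change was −0.47 ± 0.12 (limma adjusted p = 0.025), and leaving out NOD 10 (0.0526), NOD 18 (0.093), B6 4 (0.0853) or B6 20 (0.0763) ended that call. The summed dendritic cell and macrophage markers described above were also lower in NOD, and their part in the lower values of the cluster was not tested. The mm10 assembly named in the submitters' processing notes is that of B6, so a NOD transcript whose reads fail to align and a transcript at a lower level cannot be told apart here.

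**Figure D2:**
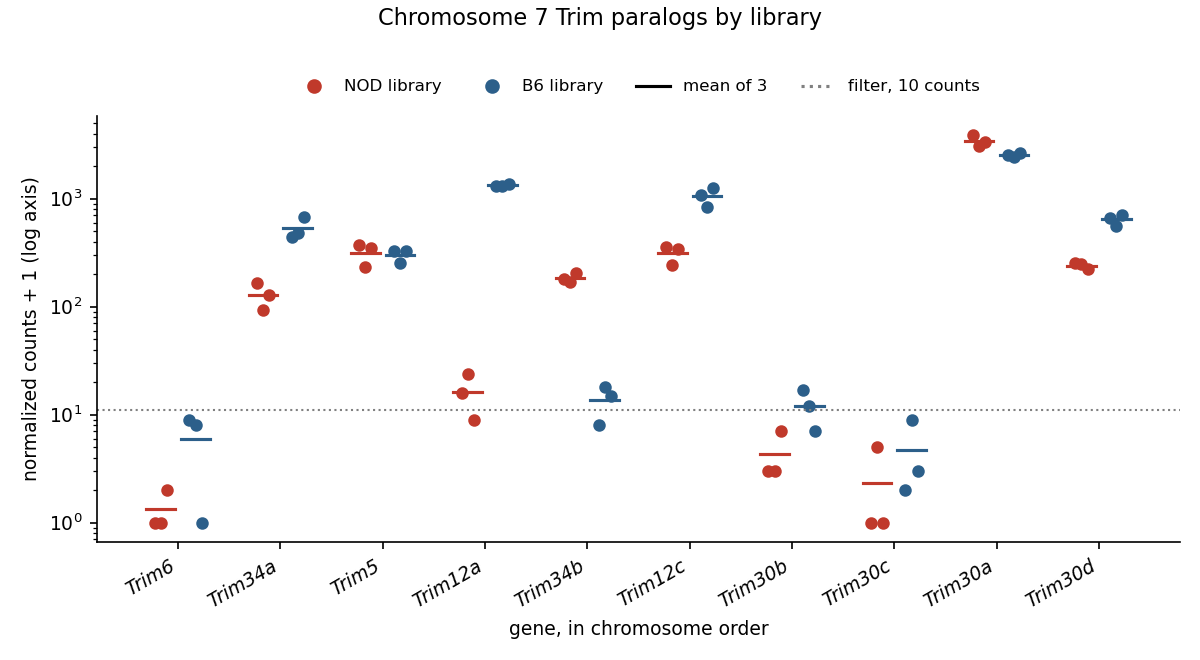
Normalized counts + 1 (log axis) of the 10 cluster genes in chromosome order, with points for the 3 NOD (red) and 3 B6 (blue) libraries, bars at their means and a dotted line at the filter of 10 counts. Trim12a, Trim12c, Trim30d and Trim34a are lower in every NOD library, Trim34b and Trim30a are higher, and Trim5 overlaps.

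Around the cluster, within 1000 kb of Trim30a, the table held 35 genes that are no TRIM genes, of which 4 were tested. Of the 4, 2 were lower in NOD and 0 higher, beside 5.3% and 4.59% of all genes. Both lie inside the cluster, and both passed the filter through the B6 libraries alone, so the filter bears on their calls and on this count. Gm15133 (chr7:104315019-104324838, plus strand), an antisense gene that overlaps the 5′ end of Trim12a, was listed at 0 in all NOD libraries and at 131, 133 and 131 normalized counts in B6 (limma adjusted p = 9.4e-07, and 1.32e-06 with no filter). The spans of Gm15133 and Trim12a overlap, but no annotated exon of Trim12a overlaps an exon of another gene on either strand. Whether the counting used strand or exons alone is not given in the sources used here. Whether reads of 1 gene were counted in the other was not tested. Gm16464, a processed pseudogene inside Trim30d, stood at 3, 8 and 7 in NOD and 20, 20 and 25 in B6, a log2 fold change of −1.77 ± 0.47 (limma adjusted p = 0.034). It did not pass with no filter (0.0761). Leaving out NOD 2 (limma adjusted p = 0.128), NOD 18 (0.0754), B6 4 (0.11), B6 12 (0.0952) or B6 20 (0.0957) ended that call. The other two, Gm5900 at 15, 13 and 20 in NOD and 2, 8 and 2 in B6 and Fam160a2 at 450, 590 and 485 in NOD and 401, 334 and 367 in B6, did not pass (limma adjusted p = 0.056 and 0.079). Both had non-overlapping strains, with the NOD libraries higher, beside 24.1% of all genes tested without overlap. Gm5900 passed the filter through the NOD libraries alone, so its lack of overlap follows from the filter.

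**Figure D3:**
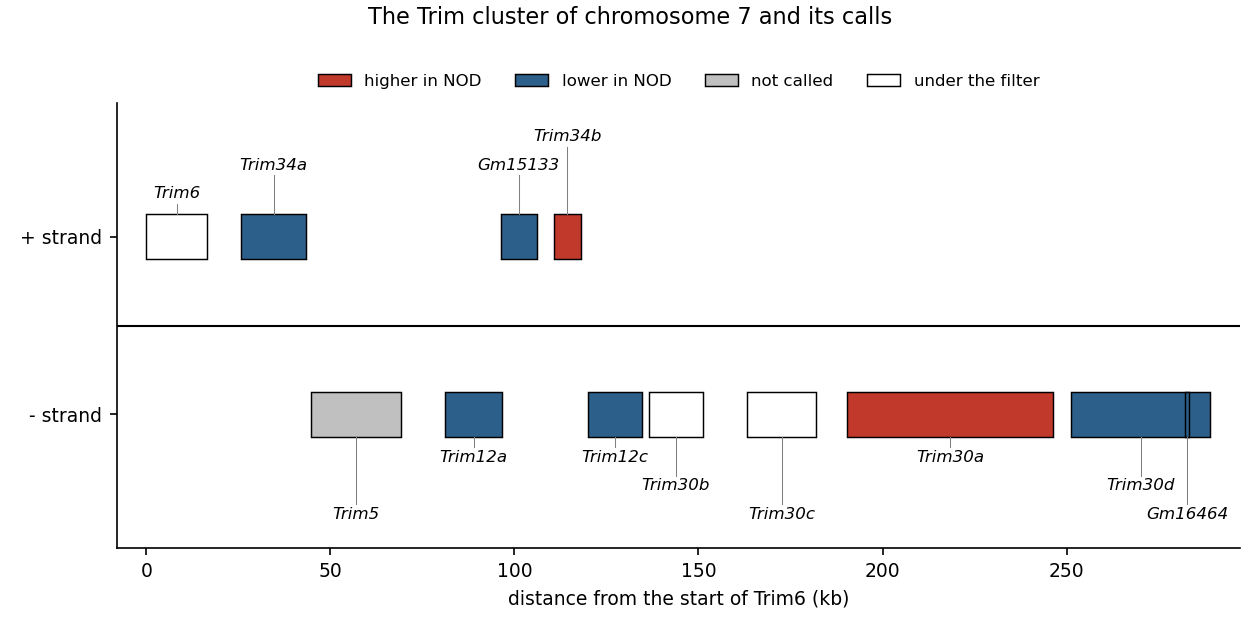
Map of the chromosome 7 cluster, with boxes to scale for the 10 TRIM genes and both called neighbours, by strand, against the distance from the start of Trim6 in kb, coloured by the limma call. Trim34b (3.83 on the log2 scale) lies between Trim12a and Trim12c, which were lower, and Trim5, which was not called, between Trim34a and Trim12a.

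Outside the cluster, 33 of 54 members were kept and 0 passed the test with limma, while 10 of the 33 had an unadjusted p below 0.05, beside 20.3% of all genes tested. The lowest adjusted p among them was 0.064. The authors' deposited table called 5 members outside the cluster, namely Trim16, Trim21, Trim36, Trim37 and Trim68, beside 9.75% of all genes with an adjusted p there. The median log2 fold change of the 33 was −0.02 and their median absolute change 0.25 in limma, close to the 0.22 of all genes. For 25 of the 33 the 95% interval stayed within 1 of 0 on the log2 scale, and for the other 8 it reached further, so a difference of that size lies within their intervals. By chromosome, 6 of the 11 kept members on chromosome 7 passed, and 0 of the kept members on the other chromosomes, beside 9.89% of all genes. These 6 are the cluster genes described above, so the count restates those calls.

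Of the 4 members listed with the TIF1 proteins, which act in chromatin, 3 were kept, and Trim66 was under the filter at no more than 3 normalized counts. Trim28 (also KAP1), the co-repressor that zinc finger proteins with a KRAB domain recruit and that acts in Treg function in mice, stood at 3439, 4025 and 3668 normalized counts in NOD and 3456, 3727 and 4390 in B6. The strains overlapped, with a log2 fold change of −0.05 ± 0.12 and an interval of −0.31 to 0.20. Trim33 (TIF1-gamma), which acts on SMAD4 in TGF-beta signalling, stood at 2466, 2345 and 2521 in NOD and 2558, 2129 and 2478 in B6, again overlapping, with a change of 0.04 ± 0.11. Trim24 (TIF1-alpha), which acts with nuclear receptors, had means of 1177 ± 88.1 in NOD and 1265 ± 63.5 in B6 and a change of −0.11 ± 0.11. None of these 3 passed in limma (adjusted p = 0.88, 0.90 and 0.68, in that order), none had an unadjusted p below 0.05 and the authors' deposited table called none. Of 14 listed partners of these proteins, all tested, 1 was higher and 0 lower, which is 7.14% beside 9.89% of all genes. This was Atf7ip, which supports the methyltransferase SETDB1, at 3402, 2439 and 3221 in NOD and 2385, 2018 and 1804 in B6. Its log2 fold change was 0.54 ± 0.15 (limma adjusted p = 0.039), and leaving out NOD 2 (0.16), NOD 18 (0.161), B6 12 (0.127) or B6 20 (0.124) ended the call.

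Among members outside the cluster that end in a SPRY domain and have no COS box, 17 of 27 were kept and 0 passed in limma. Of the 17, 5 had an unadjusted p below 0.05, beside 20.3% of all genes tested, and 2 had separated strains, beside 24.1%. Trim16, Trim21 and Trim68 were called in the authors' deposited table, beside 9.75% of all genes with an adjusted p there. Trim25, which ubiquitinates the RNA sensor RIG-I, stood at 2100, 1808 and 2309 normalized counts in NOD and 1748, 1536 and 1963 in B6, which overlapped, with a log2 fold change of 0.24 ± 0.13 (limma adjusted p = 0.34). Trim26, a ubiquitin ligase that acts on IRF3, stood at 1728, 1736 and 1698 in NOD and 1884, 1543 and 1473 in B6, with a change of 0.08 ± 0.12 (limma adjusted p = 0.78). Here the NOD libraries lay close together inside the B6 range. Trim35 stood at 1350, 1767 and 1337 in NOD and 1805, 1761 and 2022 in B6, a change of −0.34 ± 0.13 (limma adjusted p = 0.16), and it overlapped through NOD library 10, without which it passed (−0.47, adjusted p = 0.019). Trim21, the cytosolic antibody receptor and Ro52 autoantigen, had means of 570 ± 23.7 in NOD and 764 ± 93.6 in B6, with the strains separated. Its change was −0.42 ± 0.13 (limma adjusted p = 0.066), and the authors' deposited table gave an adjusted p of 0.0085. Trim68 had means of 100.3 ± 9.29 and 157 ± 19.7, also separated, with a change of −0.64 ± 0.19 (limma adjusted p = 0.064; 0.0011 in the authors' deposited table). Trim21 (chr7:102557921-102565486) and Trim68 (chr7:102677582-102687327) lie on chromosome 7 as well, outside the cluster. Trim17 passed without NOD library 2 (−2.57, limma adjusted p = 0.047), against −1.73 ± 0.74 with it, at means of 7.33 ± 8.51 in NOD and 19 ± 7.94 in B6. Trim65, which ubiquitinates the RNA sensor MDA5, had means of 160 ± 23.7 and 169 ± 13.5 and a change of −0.09 ± 0.18.

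The remaining members have a COS box, NHL repeats or neither, and 13 of their 23 rows were kept, with 0 called by limma. Of the 13, 5 had an unadjusted p below 0.05, and Trim36 and Trim37 were called in the authors' deposited table. Over all genes tested, 20.3% had such a p and 24.1% had separated strains, and the authors called 9.75% of genes with an adjusted p. Trim56, which acts in STING and TLR3 signalling, stood at 1801, 1707 and 1933 normalized counts in NOD and 1703, 1407 and 1408 in B6. The strains were separated by a narrow gap, with a change of 0.27 ± 0.11 (limma adjusted p = 0.21). Trim44, an atypical member that lacks the RING finger and opposes ubiquitination, stood at 1385, 1178 and 1406 in NOD and 1677, 1485 and 1478 in B6, with a change of −0.23 ± 0.11 (limma adjusted p = 0.31), and all its NOD libraries were below all B6 libraries. Trim37, a ligase of centriole assembly and histone H2A, had means of 418 ± 71.1 in NOD and 287 ± 46.4 in B6 and was separated, at 0.54 ± 0.18 (limma adjusted p = 0.087; 0.0035 in the authors' deposited table). It passed without NOD library 10 (0.65, adjusted p = 0.041). Trim36 had means of 153 ± 27.2 and 92.3 ± 25.01 and was separated too, at 0.74 ± 0.24 (limma adjusted p = 0.085; 0.035 in the authors' deposited table), and it passed without B6 library 12 (0.95, adjusted p = 0.04). Trim36 and Trim46 have a COS box, which binds microtubules, and Trim46 had means of 43.7 ± 3.06 and 68.3 ± 15.0, separated, at −0.61 ± 0.26 (limma adjusted p = 0.21). Trim13, a ligase of the endoplasmic reticulum, had means of 255 ± 22.3 and 182 ± 30.1, separated, at 0.50 ± 0.18 (limma adjusted p = 0.12). Trim32, with NHL repeats, had means of 237 ± 33.2 and 199 ± 56.4 and a change of 0.29 ± 0.23.

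Of the 64 members, 24 were under the filter, and their highest value in any library was 16, in Trim30b. For 22 of the 24 no library exceeded 9 normalized counts, and Trim58 was listed at 0 in all libraries. Levels between genes were compared per kilobase of annotated exon. Trim28 was highest in both strains, at 892 ± 71.0 normalized counts per kb in NOD and 928 ± 116 in B6, followed by Trim30a at 837 ± 98.7 and 621 ± 24.3. In NOD these neighbours lay within their spread of each other, and in B6 they did not. Trim35, Trim25 and Trim11 came next in B6, at 403 ± 30.3, 304 ± 37.1 and 290 ± 37.9 per kb, and the last pair lay within its spread. Called cluster genes other than Trim30a changed their place in this order, and so did members outside the cluster that limma did not call. Trim12a held place 11 of 40 in B6, at 231 ± 5.54 per kb, and place 37 in NOD, at 2.65 ± 1.30. Trim12c went from place 6 in B6 to 20 in NOD, Trim34a from 14 to 26 and Trim30d from 16 to 23, while Trim34b went from 37 in B6 to 18 in NOD. Trim5 held place 22 in B6 and 19 in NOD. Outside the cluster, Trim13 went from place 21 in B6 to 14 in NOD, Trim56 from 18 to 11 and Trim68 from 25 to 30. The lowest kept member in both strains was Trim2, which has NHL repeats and is known from neurons, at 1.08 ± 0.28 and 1.30 ± 0.36 per kb.

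**Figure D4:**
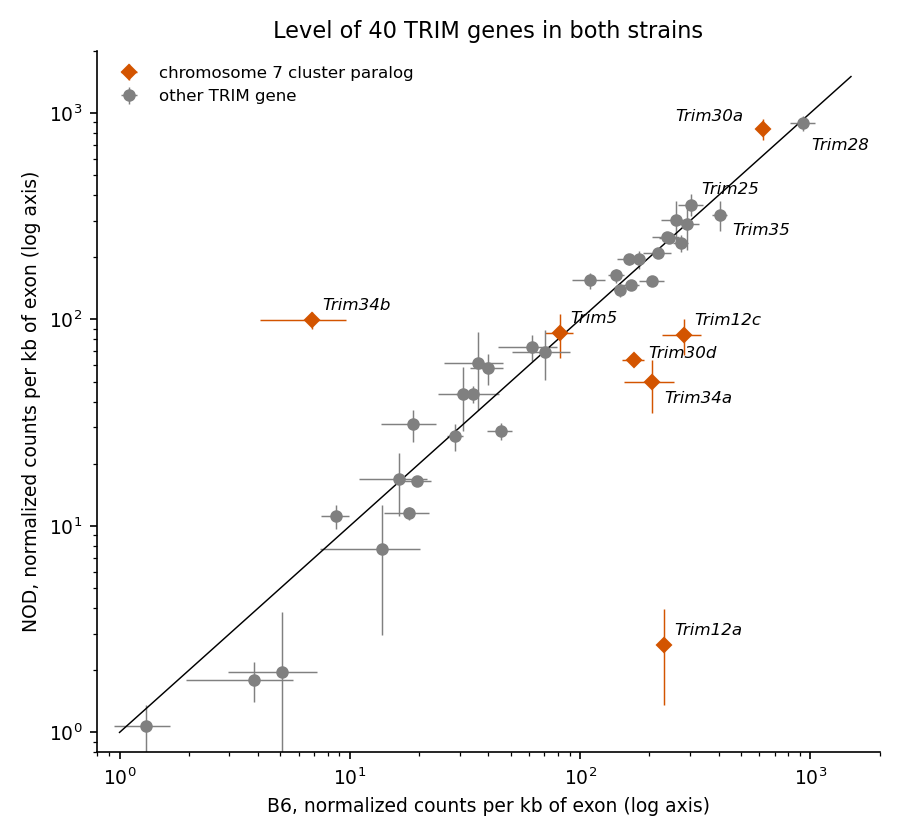
Mean level of each of the 40 kept TRIM genes in NOD against B6, in normalized counts per kb of annotated exon on log axes, with bars for the SD over 3 libraries (cut at the axis limit) and a line of equal level. Most genes lie along the line, and of the cluster paralogs Trim34b lies above it and Trim12a, Trim12c, Trim30d and Trim34a below.

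Related genes were taken from lists outside the symbol rule, and 4 of the 43 tested passed (9.3%), near the 9.89% of all genes. Among TRIM proteins under other symbols, 4 of 7 were tested. Mid2, a microtubule-associated ligase, was higher in NOD, at 246, 257 and 231 normalized counts against 84, 114 and 69, with a log2 fold change of 1.48 ± 0.21 (limma adjusted p = 0.00078). Its paralog Mid1 was lower, at 54, 27 and 40 against 110, 93 and 108, with a change of −1.39 ± 0.29 (limma adjusted p = 0.0086). The libraries of the strains did not overlap for either. Pml, the organizer of nuclear bodies, and Bspry had changes of −0.09 ± 0.13 and −0.80 ± 0.41 that did not pass (limma adjusted p = 0.80 and 0.32).

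Of 26 listed genes of cytosolic RNA and DNA sensing and its ubiquitin steps, 25 were tested. Of these, 1 was lower in NOD and 0 higher, which is 4% beside 9.89% of all genes. That gene was Ifih1, which encodes MDA5, at 707, 671 and 719 normalized counts in NOD and 1046, 1092 and 955 in B6. The strains were separated, with a log2 fold change of −0.56 ± 0.11 (limma adjusted p = 0.0073, and 0.01 to 0.044 with a library left out), and the authors' deposited table gave an adjusted p of 0.171. Other genes of the list named here did not pass. Ddx58 (RIG-I) had a change of 0.07, its adaptor Mavs 0.22 and the interferon-inducible factor Irf7 0.03 (limma adjusted p = 0.80, 0.58 and 0.93). The median absolute change over the 25 was 0.09, against 0.22 over all genes tested.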

How the data were processed

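RNA sequencing of 3 NOD and 3 B6 libraries was analysed from a single deposited table. Libraries were TruSeq Standard Total RNA LT from miRNeasy-extracted RNA, per the labels' protocols. Trimmomatic, STAR, DESeq2 and mm10 are named per the submitters' processing notes; which counter, annotation and strand setting were used is not given in the sources used here. The sample columns hold scores that their headers mark as norm. They were read as counts that the authors divided by size factors and rounded, which the headers do not state. The deposited table also gives the authors' log2 fold change with its SE, a raw and an adjusted p-value, and the mean and test statistic as further scores. The 6 columns do not average to that mean, so the authors' comparison may include other libraries, which was not tested.

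Column names give the strain; they carry library numbers, not the replicate numbers of the labels, and the number of sample columns not used is 0. Depth estimates come from the gaps that rounding leaves. Larger size factors can leave the same gaps, so the search range was capped and the estimates rest on that cap. Of low values, 59.6% to 100% fitted a single whole number of reads, so reads were not recovered and no count test was run. Libraries of a strain differed by a chi-square of 14.7 to 109 per gene, more than sampling noise, so none was counted as a duplicate.

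Genes with 10 or more in at least 3 libraries (2 with a library left out) were fitted with limma 3.58.1 (R 4.3.3 and data.table, version 1.17.8) on log2(value + 1), with a strain term alone and a variance trend. This scale understates changes of low genes. Two-sided p-values were adjusted by Benjamini-Hochberg over the 16442 genes, the threshold was 0.05, and the script was tested on simulated data. Means carry the SD over 3 libraries and changes limma's SE or 95% interval. Alternatives were pseudocounts of 0.5 and 5, no filter, a minimum of 50, TMM scaling (own code), quantile normalization, no variance trend, each library left out and the authors' comparison. Annotation was GENCODE M21 on GRCm38, the assembly mm10 names, and all 64 members matched; sequences were read with biopython 1.88 and tables with pandas 2.3.3. Promoters were RefSeq's.

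The members and lists were chosen with earlier results of these data known. Full values are given for called members, kept cluster paralogs and the 8 kept members with the highest mean, and other members by range and counts; of the related lists, called genes are named. Trim16, Trim21, Trim36, Trim37, Trim68, Trim13, Trim46, Trim17, Trim65, Trim32, Ddx58, Mavs, Irf7, Gm5900 and Fam160a2 were named after their values were seen.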

Additional observations from a re-analysis of the deposited data

How the results depend on the processing

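Trim12a, Trim12c, Trim30d, Trim34a and Trim34b kept their direction and their call under all 14 alternatives, and no alternative scaling moved the median of all genes by more than 0.1 on the log2 scale. The count of TRIM genes higher in NOD was 1 with no variance trend, 4 in the authors' deposited table and 1 to 3 with a library left out. The count lower was 6 in the authors' deposited table and 4 to 5 with a library left out. Outside the cluster, 5 members were called in the authors' deposited table and 0 to 2 with a library left out. Neighbours of Trim30a called lower numbered 1 without a filter, 1 at a minimum of 50, 3 in the authors' deposited table and 1 to 2 with a library left out. Those called higher numbered 1 with a pseudocount of 5, 1 with quantile normalization, 2 in the authors' deposited table and 0 to 1 with a library left out. Related genes called higher numbered 1 without a filter, 1 with no variance trend and 1 to 3 with a library left out, and those called lower 1 in the authors' deposited table and 2 to 3 with a library left out. The cause of these differences was not tested. Sums of cluster genes, not all of them near-identical, were chosen after seeing the data and turned the direction of single genes by construction. Trim5 went to −2.07 with Trim12a and Trim12c, Trim34b to −0.79 with Trim34a and Trim30d to 0.20 with Trim30a. In the whole cluster, Trim5, Trim30a and Trim34b went to −0.47. With no variance trend the adjusted p of Trim30a was 0.149. By the labels' replicate numbers, no paired analysis was possible because the columns do not carry them. The column numbers do run in neighbouring sets (2 and 4, 10 and 12, 18 and 20), and a replicate block on these sets, added after seeing the data, gave 4 TRIM genes higher and 5 lower, with 3 outside the cluster (Trim16, Trim21 and Trim37, at limma adjusted p = 0.0201, 0.0443 and 0.0401), and 2027 calls among all genes against 1626. Deviations from the strain means correlated at 0.007, 0.18 and 0.127 within these sets, and NOD library 2 correlated more with B6 library 20 (0.098) than with its own set, so the sets were not taken as pairs.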
